A study of Mus musculus with 8 samples.

Results

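The 10 genes described here act in mitochondrial fusion (Opa1, Mfn1, Mfn2), fission (Dnm1l, Fis1, Mff) and mitophagy (Pink1, Bnip3l, Fundc1, Bcl2l13). They were taken by symbol from 47643 genes measured in whole mouse kidney, and all 10 were among the 13829 genes that passed the filter on low counts. Each of them had at least 266 counts in every library, so none passed through 1 group alone. The study compared 4 kidney libraries of mice carrying Six2-Cre and 2 floxed Cox10 alleles (cKO) with 4 of wild-type mice (WT). Cox10 encodes a farnesyltransferase needed to make the heme A of cytochrome c oxidase, complex IV of the respiratory chain. The Cre driver, Six2, marks the progenitors of the nephron, which places recombination in the nephron epithelium and not in stroma, vessels or the collecting duct. The mice were 3 months old except for replicate 2 of each group, which was 2.5 months old. The labels do not say whether the WT mice carried Cre or floxed alleles, or that each library came from a separate animal, so the p-values measure the spread between these libraries.

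Mitochondria form a network that is remodelled by joining and division. Mfn1 and Mfn2 are GTPases that join outer membranes, and Opa1 is the GTPase that joins inner membranes and shapes cristae. Dnm1l encodes Drp1, the GTPase that constricts and divides mitochondria after it is recruited by outer membrane proteins such as Mff and Fis1. Mitophagy is the removal of mitochondria by autophagy. In one route the kinase Pink1 builds up on damaged mitochondria and marks them for removal through ubiquitin, and in another the outer membrane receptors Bnip3l (also called Nix), Fundc1 and Bcl2l13 bind the autophagosome directly. Tubule epithelium of the kidney is rich in mitochondria, and the proximal tubule relies mainly on oxidative metabolism.

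The libraries held 9454830 to 14837448 counts in cKO and 9731334 to 15838026 in WT. Cox10 itself had 18.4 ± 5.12 CPM (counts scaled to a common library size) in cKO and 21.0 ± 2.47 CPM in WT (SD, n = 4 each), a log2 fold change of -0.19 with an edgeR adjusted p of 0.619. The labels do not give the floxed exons, so a count over the whole gene does not check the deletion. The labels give no sex, and reads of 4 Y-linked genes were found in 1 of 4 cKO and 3 of 4 WT libraries. Libraries also differed in transcript make-up: genes with at least 5 kb of exon took 20.6% to 25.4% of nuclear-encoded counts in cKO and 21.9% to 32.5% in WT, with the highest shares in WT 3 and WT 4. Ribosomal protein genes took 12.2% of nuclear-encoded counts in cKO 2, 4.71% to 6.57% in the other cKO libraries and 1.76% to 4.51% in WT. Markers of several cell types differed between the groups, which are also unequal in libraries with Y-linked reads. Of 12 proximal tubule markers 7 were lower in cKO by edgeR, and the list's median log2 fold change was -1.01. They summed to 4031 to 16913 CPM in cKO and 53184 to 84575 CPM in WT, sums in which Kap alone dominates, and without Kap to 3277 to 8251 CPM in cKO and 9795 to 18344 CPM in WT. The 7 fibroblast markers summed to 436 to 694 CPM in cKO and 107 to 179 CPM in WT, and the 9 macrophage markers to 440.4 to 779 CPM in cKO and 112 to 224 CPM in WT, with 7 of 7 and 8 of 9 higher in cKO. Collecting duct markers summed to 1337 to 3008 CPM in cKO and 629 to 960.1 CPM in WT (4 of 8 higher, 1 lower). Aqp2 alone had 710 to 2113 CPM of these sums in cKO and 138 to 382 CPM in WT. The 4 higher were Aqp3, Aqp2, Scnn1g and Hsd11b2, and the 1 lower was Slc4a1 (log2 fold change -1.83). Distal convoluted tubule markers summed to 403 to 545 CPM in cKO and 648 to 1332 CPM in WT (3 of 4 lower). Thick ascending limb markers summed to 1508 to 2636 CPM in cKO and 2859 to 5136 CPM in WT (1 of 5 higher, 1 lower). Their median log2 fold change was -0.71, with 4 of 5 below 0. Of 6 endothelial markers 1 was lower, and of 5 podocyte markers 0 passed. In bulk tissue, fewer cells of a type and less RNA per cell cannot be told apart, and the part of cell make-up in the results below was not tested. The part of sex in the marker differences was not tested either.

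None of the 10 genes passed an edgeR quasi-likelihood test at an adjusted p of 0.05, in a comparison in which 16.7% of all tested genes did (2310 of 13829). The count over all genes was 1155 without cKO 4, 1288 without WT 4 and 1438 without WT 3. The values of Pink1 and Mfn2 came nearest, both lower in cKO, with adjusted p of 0.0521 and 0.0607. At an unadjusted p under 0.05 there were 4 genes, Opa1, Mfn1, Mfn2 and Pink1, all lower in cKO, where 33.1% of tested genes reached that level and 16.3% were lower at it. Values of the groups did not overlap for 3 genes, Mfn1, Mfn2 and Pink1, each with all 4 cKO libraries below all 4 WT libraries, as in 9.56% of tested genes (22.6% in either direction). The median log2 fold change was -0.37 over the 10 genes and -0.01 over all tested genes. DESeq2 called Mfn2 and Pink1, both lower, and limma-voom called Pink1, in fits that called 19.8% and 16.7% of genes and 8.88% and 6.75% as lower.

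**Figure D1:**
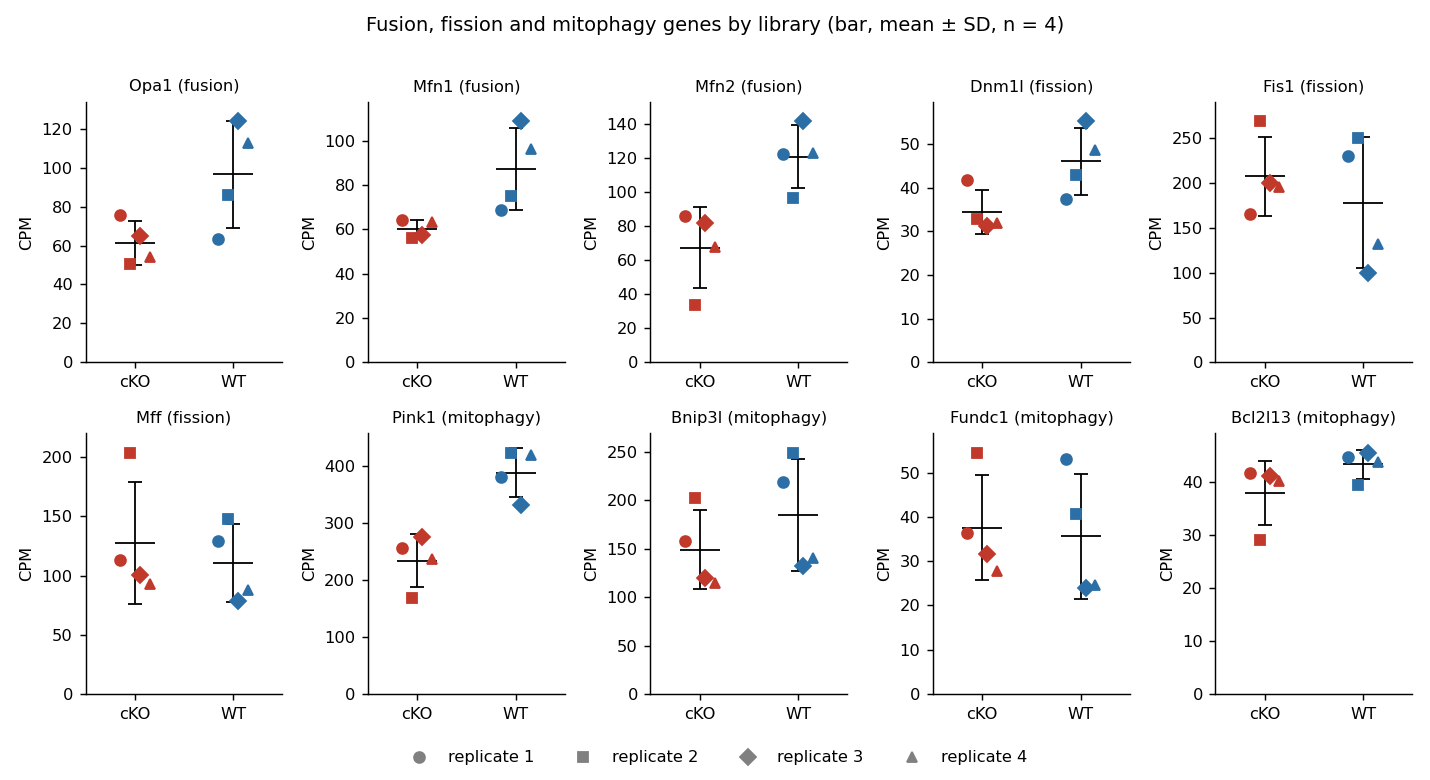
Level of each of the 10 genes in CPM, 1 panel a gene, with cKO libraries left of WT libraries, each point 1 library and each bar the mean with its SD (n = 4 each). All cKO points lie below all WT points for Mfn1, Mfn2 and Pink1, while Fis1, Mff and Fundc1 overlap widely and are highest in cKO 2.

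**Figure D2:**
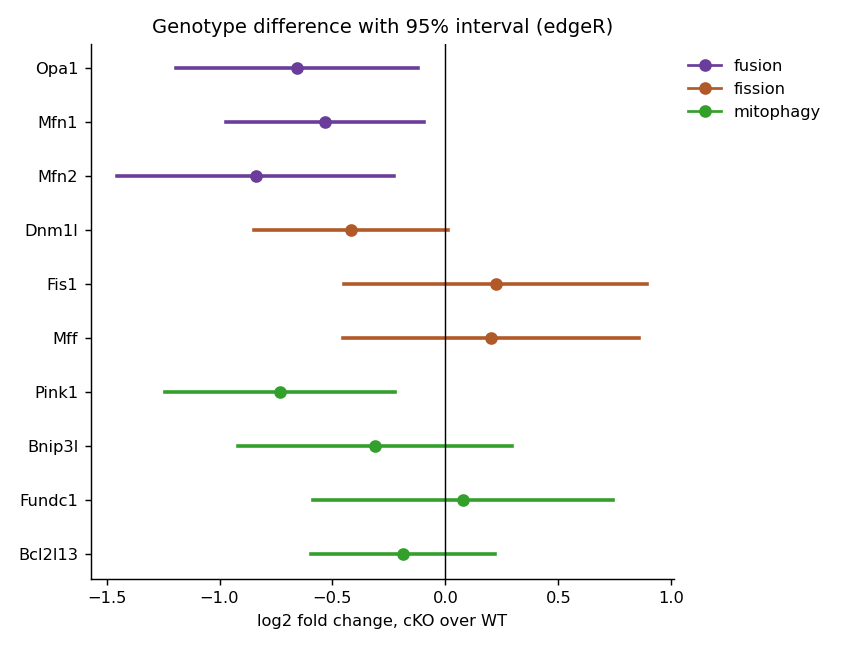
Fitted log2 fold change of each gene, cKO over WT, with its 95% confidence interval from the edgeR fit. The estimates run from -0.84 for Mfn2 to 0.22 for Fis1, and the intervals of Opa1, Mfn1, Mfn2 and Pink1 lie below 0.

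The 3 fusion GTPases all had lower means in cKO kidneys, and none passed the adjusted test. Mfn2, which besides joining mitochondria is known to tether them to the endoplasmic reticulum, had 86.0, 33.7, 81.9 and 67.8 CPM in cKO libraries 1 to 4, against 122, 96.4, 142 and 123 CPM in WT libraries 1 to 4. Every cKO library was below the lowest WT library, and cKO 2 was well below the other cKO libraries. The means were 67.4 ± 23.7 CPM in cKO and 121 ± 18.5 CPM in WT (SD, n = 4 each), a log2 fold change of -0.84 ± 0.28 (SE) with an edgeR adjusted p of 0.0607. Mfn2 passed with an age term (-0.91, edgeR adjusted p 0.0111), with the replicate number as a block (-0.91, 0.0262) and without the 2.5-month pair (-0.71, 0.0468). In these fits 9.9%, 6.46% and 3.05% of all genes were lower in cKO, and 21.5%, 16% and 10% passed in either direction. With a term for sex the value was -0.76, with an edgeR adjusted p of 0.206, and 0 of the 10 genes passed, where 6.8% of all genes did and 1.63% were lower. Mfn2 did not pass with any single library left out (-0.98 to -0.62, edgeR adjusted p 0.0550 to 0.137).

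Mfn1, the mitofusin with the stronger tethering activity of the pair, had 64.0, 56.0, 57.6 and 63.2 CPM in cKO libraries 1 to 4, against 68.5, 75.2, 109 and 96.3 CPM in WT libraries 1 to 4. The groups did not overlap, but WT 1 was close to the highest cKO libraries. Its log2 fold change was -0.53 ± 0.20 (SE), with an edgeR adjusted p of 0.0896. Opa1 had 75.7, 50.5, 64.7 and 53.9 CPM in cKO libraries 1 to 4, against 63.3, 86.0, 124 and 113 CPM in WT libraries 1 to 4. Here WT 1 lay within the cKO range, and 2 of the 4 cKO libraries were below it. The log2 fold change of Opa1 was -0.66 ± 0.24 (SE), with an edgeR adjusted p of 0.0870. Leaving out WT 1 brought Opa1 to -0.82 (edgeR adjusted p 0.0271) and Mfn1 to -0.64 (0.0464), in a fit that called 22% of all genes, 10.4% as lower. WT 1 was the only WT library without Y-linked reads, which were found in 1 of 4 cKO libraries. Without it the groups are thus more unequal in sex, and the part of sex in these 2 calls was not tested. Summed over the 3 genes, cKO libraries had 140.2 to 226 CPM and WT libraries 254 to 374 CPM, without overlap. Mfn1 and Mfn2 already separated the groups singly and Opa1 did not, so this sum is no separate evidence.

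In the mm10 build, Opa1 lies at chr16:29579334-29654884 on the plus strand, with 30 merged exons in GENCODE. Mfn1 lies at chr3:32529465-32579239 on the plus strand and has 18 merged exons. Mfn2 lies at chr4:147873599-147904704 on the minus strand, with 20 merged exons, on the same chromosome as Pink1 at chr4:138313409-138326307, also on the minus strand, with 8. The 250 bases before the RefSeq start of these 4 genes (GRCm38.p6) are shown because they are the genes with an unadjusted p under 0.05, all lower in cKO. Each is written 5′ to 3′ on the strand of its gene, and capitals mark a match to the binding site of nuclear respiratory factor 1 (NRF1), a regulator of nuclear genes for mitochondria.
Opa1, chr16:29579084-29579333, plus strand: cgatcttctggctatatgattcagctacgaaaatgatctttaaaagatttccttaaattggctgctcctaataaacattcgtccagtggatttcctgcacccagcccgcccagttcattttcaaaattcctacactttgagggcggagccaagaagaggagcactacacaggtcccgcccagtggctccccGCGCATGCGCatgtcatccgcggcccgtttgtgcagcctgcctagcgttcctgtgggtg
Mfn1, chr3:32529232-32529481, plus strand: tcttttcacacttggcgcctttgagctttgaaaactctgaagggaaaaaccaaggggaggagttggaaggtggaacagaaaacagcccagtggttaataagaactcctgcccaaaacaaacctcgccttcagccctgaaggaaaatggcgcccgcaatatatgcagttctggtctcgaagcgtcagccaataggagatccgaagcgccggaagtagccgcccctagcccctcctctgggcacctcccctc
Mfn2, chr4:147904699-147904948, minus strand: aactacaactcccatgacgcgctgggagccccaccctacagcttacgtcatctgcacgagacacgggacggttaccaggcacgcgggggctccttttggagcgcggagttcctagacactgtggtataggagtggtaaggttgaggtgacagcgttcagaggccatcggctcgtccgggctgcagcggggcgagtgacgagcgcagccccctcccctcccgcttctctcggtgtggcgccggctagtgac
Pink1, chr4:138326297-138326546, minus strand: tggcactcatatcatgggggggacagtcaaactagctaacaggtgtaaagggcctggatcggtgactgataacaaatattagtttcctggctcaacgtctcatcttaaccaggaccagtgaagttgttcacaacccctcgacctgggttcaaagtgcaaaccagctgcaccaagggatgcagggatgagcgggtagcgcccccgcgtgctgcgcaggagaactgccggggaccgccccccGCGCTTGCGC

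The windows searched ran from 250 bases before to 50 after the start, on both strands, and 9 of the 10 genes matched the RefSeq table; Bnip3l did not. Of the 3 Mfn2 windows in the table, the one nearest to the GENCODE start was used. Dnm1l, Fis1 and Mff had 2 windows each in the table, and 1 window a gene was used. The NRF1 site, searched as GCGC, then A, any base and GCGC, was found in Opa1, at -59 to -50 from the start, and on the opposite strand in Pink1, at -10 to -1, and in 4.60% of 32851 windows. The hypoxia response core ACGTG was found in Mfn2, across the start at -2 to 2, and in 19.6% of windows. The estrogen-related receptor half-site AAGGTCA (4.72% of windows), the CREB site TGACGTCA (1.79%), the FOXO site GTAAACA (3.65%) and the TFEB site, GTCAC followed by GTGAC (0.326%), were in none of the 9, and Mfn1 held none of the 6 motifs. The TFEB site contains the ACGTG core, so these searches overlap.

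The 3 fission genes differed in sign, with Dnm1l lower and Fis1 and Mff higher in mean, and none passed. Dnm1l (chr16:16312230-16358959, minus strand, 22 merged exons) had 41.8, 32.9, 31.3 and 31.8 CPM in cKO libraries 1 to 4, against 37.4, 42.8, 55.2 and 48.6 CPM in WT libraries 1 to 4. Libraries cKO 2, 3 and 4 were below every WT library, and cKO 1 was above WT 1. The log2 fold change was -0.42 ± 0.20 (SE), with a 95% confidence interval of -0.85 to 0.01 and an edgeR adjusted p of 0.162.

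Fis1 and Mff, the outer membrane proteins that can hold Drp1, had slightly higher means in cKO with intervals that span 0. Fis1 (chr5:136953275-136966234, plus strand, 8 merged exons) had 165, 269, 199.8 and 196 CPM in cKO libraries 1 to 4, against 229.6, 249.8, 99.9 and 132 CPM in WT libraries 1 to 4. The WT values split, with WT 1 and WT 2 above 3 of the 4 cKO libraries and WT 3 and WT 4 below all of them. The log2 fold change was 0.22, with an interval of -0.45 to 0.89 and an edgeR adjusted p of 0.644. It ran from 0.019 without WT 3 to 0.43 without WT 2.

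Mff (chr1:82724890-82752394, plus strand, 12 merged exons) had 113, 204, 100.1 and 93.0 CPM in cKO libraries 1 to 4, against 129, 148, 78.6 and 87.9 CPM in WT libraries 1 to 4. Its mean in cKO rested on cKO 2: the log2 fold change was 0.20 (-0.45 to 0.86, edgeR adjusted p 0.669) with that library and -0.12 without it. Summed over the 3 fission genes, cKO libraries had 320.4 to 506 CPM and WT libraries 234 to 441 CPM.

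Among the mitophagy genes, Pink1 was lower in every cKO library and the 3 receptors overlapped between groups. Pink1 had 256, 169, 275 and 236 CPM in cKO libraries 1 to 4, against 380.4, 423, 332 and 418 CPM in WT libraries 1 to 4. The highest cKO library, cKO 3, lay well below the lowest WT library, WT 3. The means were 234 ± 46.3 CPM in cKO and 388 ± 42.4 CPM in WT (SD, n = 4 each), a log2 fold change of -0.73 ± 0.23 (SE) with an edgeR adjusted p of 0.0521. Pink1 passed with DESeq2 (-0.72, adjusted p 0.00710), with limma-voom (-0.76, 0.0396) and with an age term (-0.75, edgeR adjusted p 0.0360). With a sex term it was -0.65, with an edgeR adjusted p of 0.201. Pink1 did not pass with any single library left out (-0.82 to -0.60, edgeR adjusted p 0.0570 to 0.136).

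Bnip3l (chr14:66985239-67008877, minus strand, 10 merged exons) had 158.5, 203, 120.2 and 115 CPM in cKO libraries 1 to 4, against 219, 249, 132 and 140.3 CPM in WT libraries 1 to 4. The 2 lowest libraries were cKO 3 and cKO 4, and cKO 1 and cKO 2 lay between the WT values. Its log2 fold change was -0.31 (-0.92 to 0.29), with an edgeR adjusted p of 0.460. It ran from -0.50 without cKO 2 to -0.14 without WT 2. Fundc1 (chrX:17556564-17572325, minus strand, 7 merged exons), the receptor known for its role in hypoxia, had 36.4, 54.5, 31.6 and 27.8 CPM in cKO libraries 1 to 4, against 53.1, 40.8, 23.8 and 24.6 CPM in WT libraries 1 to 4. Both groups covered nearly the same range, and the log2 fold change was 0.08 (-0.58 to 0.74), with an edgeR adjusted p of 0.878. It turned to -0.15 without cKO 2, -0.080 without WT 3 and -0.047 without WT 4.

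Bcl2l13 (chr6:120836212-120892842, plus strand, 7 merged exons), the mammalian counterpart of yeast Atg32, had 41.6, 28.9, 41.1 and 40.1 CPM in cKO libraries 1 to 4, against 44.6, 39.4, 45.5 and 43.6 CPM in WT libraries 1 to 4. Apart from cKO 2, all libraries lay between 39.4 and 45.5 CPM. The log2 fold change was -0.19 (-0.60 to 0.22), with an edgeR adjusted p of 0.508, and it was -0.080 without cKO 2. Bcl2l13 shares 628 exon bases with Bid on the opposite strand, and the strand setting of the counting is not given in the sources used here, so its level is uncertain to that extent. Summed over the 4 mitophagy genes, cKO libraries had 419 to 492 CPM and WT libraries 533 to 753 CPM. Pink1 made up a large part of these sums, with 169 to 275 CPM in cKO and 332 to 423 CPM in WT. Bnip3l, Fundc1 and Bcl2l13 each overlapped between groups.

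The order of the libraries sorted the genes into sets that cut across their roles. Opa1, Mfn1, Mfn2 and Dnm1l were highest in WT 3 and next highest in WT 4, the libraries with the largest share of counts in long genes. Fis1, Mff and Fundc1 were lowest in the same libraries and highest in cKO 2. Opa1, Mfn1, Mfn2 and Dnm1l have 7875, 6114, 5194 and 5203 bases of merged exon. The other set was not all short: Fis1 and Fundc1 have 1714 and 2353 bases, but Mff has 9757. Bcl2l13, with 9089, was in neither set. The closest pair by root-mean-square distance between centred log2 CPM profiles was Mfn1 and Dnm1l (0.121), then Opa1 and Mfn1 (0.181) and Mff and Fundc1 (0.182), over 8 libraries that share their depth and scaling between genes. With a term for the share of counts in long genes, chosen after seeing the data, the log2 fold change was -0.36 for Opa1, -0.32 for Mfn1, -0.67 for Mfn2 and -0.25 for Dnm1l, all smaller in size. These genes are in the class that the term counts and were highest where it is largest, so their smaller values are no separate evidence. Pink1, with 2673 bases of merged exon, is not in that class. Under the same term Pink1 stayed at -0.73 and passed, with an edgeR adjusted p of 0.0488, in a fit that called 12.5% of all genes, 4.98% as lower. Fis1, Mff and Fundc1 turned to -0.12, -0.11 and -0.23 under it, and Bnip3l stood at -0.56.

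**Figure D3:**
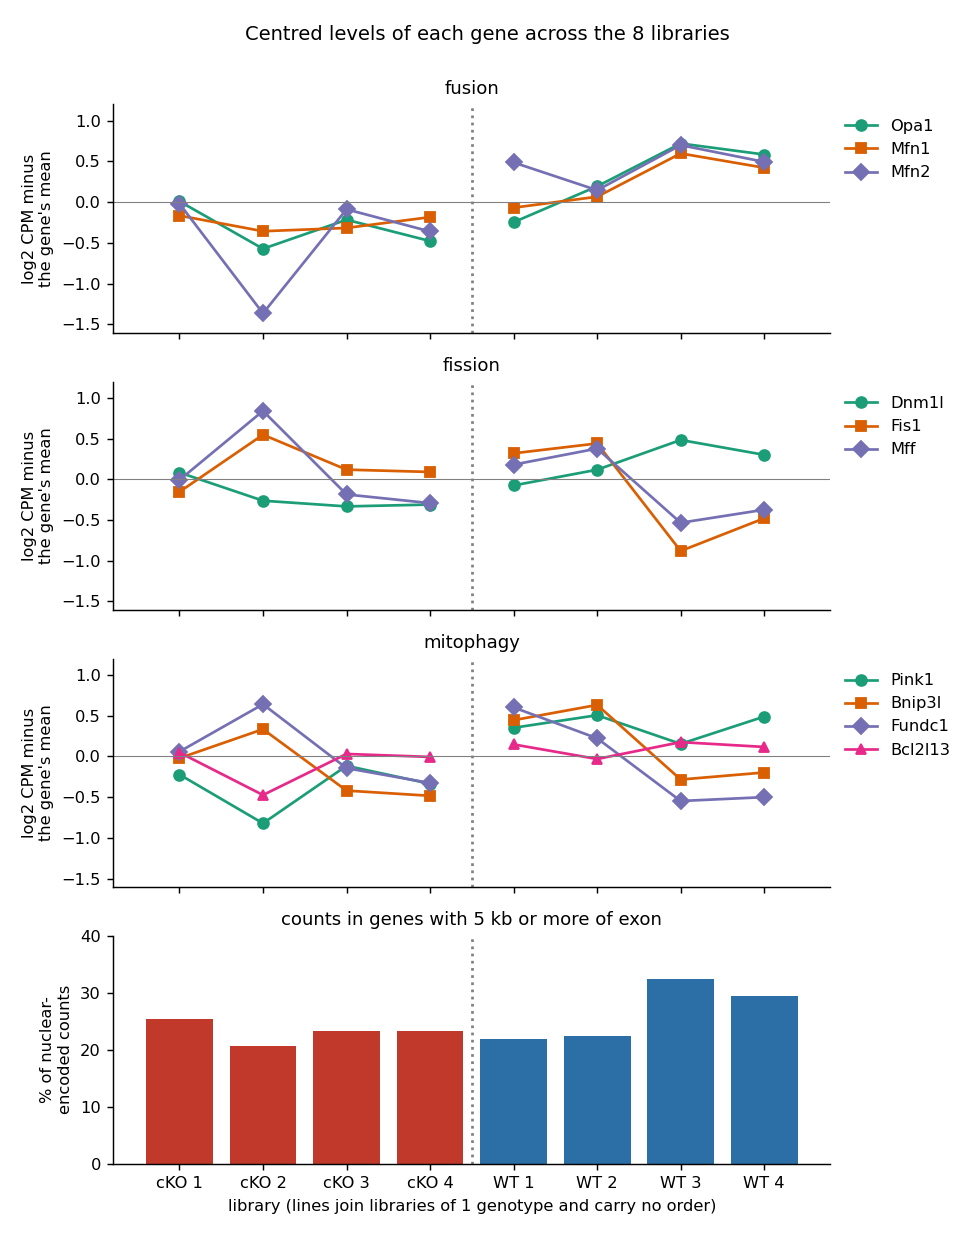
Log2 CPM of the 10 genes in each library, centred on each gene's own mean, above bars of the percent of nuclear-encoded counts in genes with at least 5 kb of exon, with cKO libraries left of WT libraries. Lines join libraries of 1 group and carry no order. Opa1, Mfn1, Mfn2 and Dnm1l are highest in WT 3, where Fis1, Mff and Fundc1 are lowest, and Pink1 is below its mean in all 4 cKO libraries.

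Sex and genotype were unevenly crossed, so the genes were also compared within the libraries with and without Y-linked reads, which leaves 1 library on one side each time. Without Y-linked reads (3 cKO libraries and WT 1), the log2 fold changes were -0.96 for Mfn2, -0.79 for Pink1, -0.16 for Mfn1 and -0.08 for both Opa1 and Dnm1l. With Y-linked reads (cKO 3 and 3 WT libraries), they were -0.55 for Mfn2, -0.51 for Pink1, -0.70 for Mfn1, -0.73 for Opa1 and -0.64 for Dnm1l. All these values were below 0, and none of the 10 genes passed in either contrast. Of all genes, 0.868% passed without Y-linked reads (0.419% as lower) and 3.47% with them (0.484% as lower). In the test of the difference between these contrasts, 0 of the 10 genes passed with edgeR and 0 had an unadjusted p under 0.05, while 0.0651% of all genes passed and 3.98% had an unadjusted p under 0.05. With 1 library in an arm of each contrast, this does not show that the contrasts are alike.

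Scaled per kilobase of merged exon, the order of mean levels in cKO was Fis1 (121 ± 25.6 CPM per kb), Pink1 (87.5 ± 17.3), Bnip3l (38.6 ± 10.5), Fundc1 (15.97 ± 5.03), Mff (13.1 ± 5.29), Mfn2 (13.0 ± 4.57), Mfn1 (9.85 ± 0.651), Opa1 (7.77 ± 1.45), Dnm1l (6.62 ± 0.952) and Bcl2l13 (4.17 ± 0.664). In WT the order by the same measure was Pink1 (145 ± 15.9 CPM per kb), Fis1 (104 ± 42.6), Bnip3l (48.0 ± 15.03), Mfn2 (23.2 ± 3.57), Fundc1 (15.1 ± 5.96), Mfn1 (14.3 ± 3.05), Opa1 (12.3 ± 3.46), Mff (11.4 ± 3.39), Dnm1l (8.84 ± 1.47) and Bcl2l13 (4.76 ± 0.298), all as mean and SD over 4 libraries. By this measure Fis1 was above Pink1 in 4 of 4 cKO libraries, though by little in cKO 1 (96.5 against 95.6 CPM per kb), and Pink1 above Fis1 in 4 of 4 WT libraries. Pink1 led by little in WT 1 (142 against 134 CPM per kb) and WT 2 (158 against 146). Its lead was wide in WT 3 (124 against 58.3) and WT 4 (157 against 77.0). Fis1 and Pink1 have 1714 and 2673 bases of merged exon, on which this order rests. Neighbours whose order changed between libraries were Mff and Mfn2, and Mfn2 and Mfn1, in cKO, and Fundc1 and Mfn1, Opa1 and Mff, and Mff and Dnm1l in WT.

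Ratios within a library do not depend on its depth or scaling. The log2 ratio of Mfn2 to Mfn1 was 0.08 ± 0.57 in cKO and 0.48 ± 0.24 in WT (SD, n = 4 each), a difference of -0.40 (exact two-sided permutation p = 0.286). Here cKO 2, at 0.602 on the linear scale, had the only ratio below 1. The log2 ratio of Opa1 to Dnm1l was 0.82 ± 0.18 in cKO and 1.04 ± 0.21 in WT, a difference of -0.21 (exact permutation p = 0.2). The linear ratio of Bnip3l to Fundc1 was 4.35, 3.72, 3.80 and 4.13 in cKO libraries 1 to 4, against 4.13, 6.11, 5.53 and 5.69 in WT libraries 1 to 4. WT 1 lay within the cKO range and the other WT libraries above it, and the log2 difference was -0.41 (exact permutation p = 0.0857). Leaving out WT 1, the WT library inside the cKO range, left groups that do not overlap, with a difference of -0.53 and an exact permutation p fixed at its smallest value, 0.0286. WT 1 was also the only WT library without Y-linked reads, and the part of sex in this ratio was not tested. Without any other single library the exact p was 0.0857 to 0.114. Adjusted over the 3 ratios, the p-values were 0.286, 0.286 and 0.257, and the smallest p that 4 against 4 libraries allow is 0.0286.

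**Figure D4:**
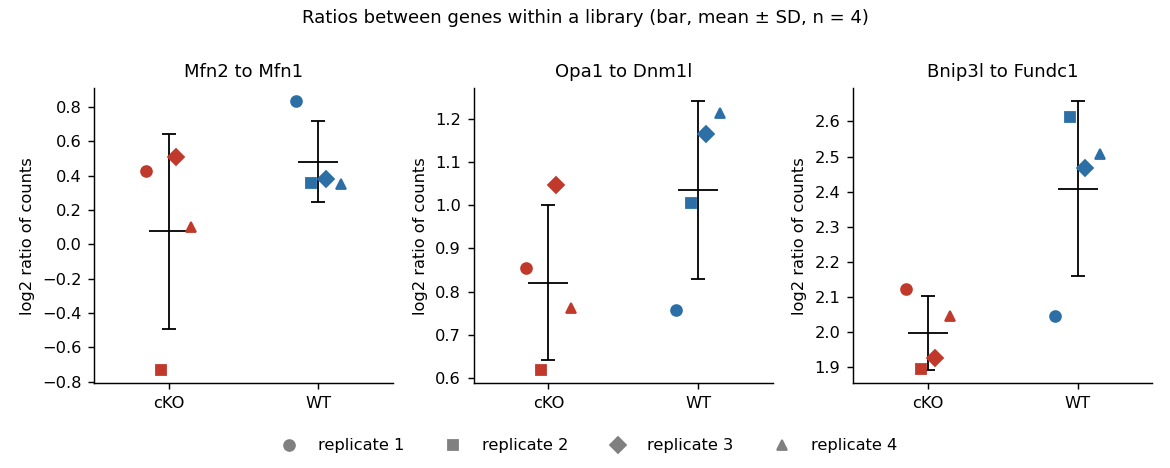
Log2 ratio of 2 genes within each library, cKO left of WT, for Mfn2 to Mfn1, Opa1 to Dnm1l and Bnip3l to Fundc1, each point 1 library with the group mean and SD. The groups overlap in all 3 ratios, and for Bnip3l to Fundc1 3 of 4 WT libraries lie above every cKO library.

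The genes with the most similar profiles were sought for Fis1 and Pink1, the members with the smallest adjusted p among those higher and those lower in cKO, among 8682 genes with a mean of at least 10 CPM. Nearest to Fis1 were Dgcr6, Serf2 and Mrps24, at root-mean-square distances of 0.0530, 0.0593 and 0.0801 over 8 libraries, with log2 fold changes of 0.13, 0.29 and 0.22. Nearest to Pink1 were Rnf167, Akr1b10 and Tmem189, at 0.0839, 0.101 and 0.103, with log2 fold changes of -0.68, -0.73 and -0.73. These 3 genes had edgeR adjusted p of 0.0365, 0.0408 and 0.0456. They were chosen for the same profile over these libraries, so they share the group difference of Pink1 by construction and are no further evidence for it.

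A further 106 genes were listed for regulation of fusion and fission, the Pink1 pathway, mitophagy receptors, the autophagosome, mitochondrial transport and mitochondrial mass. Of these, 102 were tested. Among them 8 fell and 2 rose in cKO, or 7.84% and 1.96%, beside 7.14% and 9.57% of all tested genes. Their median log2 fold change was -0.20, against -0.01 over all tested genes. Which genes passed depended on single libraries: without cKO 4 or without WT 4 only 1 of the 102 passed, 3 passed without cKO 2, 4 without WT 3, and 6 each without cKO 3 and without WT 2. With a sex term 1 passed, Inf2.

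The fission regulators held the most calls, 1 higher and 3 lower of 14 tested. Inf2, a formin that builds actin at the site of division, rose to 9.34 ± 1.76 CPM in cKO, against 3.89 ± 1.29 CPM in WT (SD, n = 4 each), a log2 fold change of 1.25 with an edgeR adjusted p of 0.0153. It was the only one of the 10 to pass with each library left out in turn, with edgeR adjusted p of 0.0160 to 0.0488. Its call ended without the 2.5-month pair (1.22, edgeR adjusted p 0.0614) and without cKO 4 and WT 4 together (1.43, 0.0525). It also ended within the libraries lacking Y-linked reads (1.85, edgeR adjusted p 0.147) and within those with them (1.34, 0.134). Spire1, whose mitochondrial isoform works with Inf2, fell by 0.67 on the log2 scale (edgeR adjusted p 0.0467). Mtfr1 and Mtfp1, proteins linked to mitochondrial division, fell by 0.82 and 0.72 (edgeR adjusted p 0.0317 and 0.0479).

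Of the 15 tested regulators of fusion 1 fell, Sirt3, a mitochondrial deacetylase that acts on Opa1, with 51.3 ± 9.82 CPM in cKO and 92.6 ± 22.4 CPM in WT (log2 fold change -0.85, edgeR adjusted p 0.0295). Of 14 genes of the Pink1 pathway 1 fell, Usp8, a deubiquitinase, with 49.6 ± 11.3 CPM in cKO and 116 ± 49.0 CPM in WT (-1.23, edgeR adjusted p 0.0220), though WT 1 at 59.1 CPM lay below cKO 1 at 61.5 CPM.

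None of 11 further mitophagy receptors and adaptors passed, and the most abundant were Sqstm1, the adaptor p62, with 491 ± 117 CPM in cKO and 478 ± 74.4 CPM in WT (edgeR adjusted p 0.934), and Bnip3, a relative of Bnip3l, with 250.3 ± 114 CPM in cKO and 290.3 ± 117 CPM in WT (0.712). Of 28 autophagosome genes 1 fell, Wipi1, which binds the lipid of forming autophagosomes (-0.75, edgeR adjusted p 0.0398), and the list's median was -0.33. Of 9 transport genes Trak2, a kinesin adaptor, fell (-0.98, edgeR adjusted p 0.0183) and Armcx3, a regulator of mitochondrial movement, rose (0.87, 0.0303). Of 14 genes taken to follow mitochondrial mass 1 fell, Hspd1, the matrix chaperonin, with 305 ± 67.8 CPM in cKO and 604 ± 195 CPM in WT (-0.99, edgeR adjusted p 0.0411), and the median of that list was -0.05. Apart from Inf2, each of these calls ended without at least 2 of the 8 libraries taken singly, with adjusted p there of 0.0508 to 0.145. Leaving out cKO 4 or WT 4, the 2 libraries numbered apart from the rest, ended all 9. Calls also ended without cKO 2 (Sirt3, Spire1, Mtfp1, Usp8, Wipi1, Armcx3, Hspd1), WT 3 (Mtfr1, Spire1, Mtfp1, Usp8, Wipi1, Hspd1), cKO 3 (Mtfr1, Spire1, Mtfp1, Hspd1) and WT 2 (Sirt3, Mtfr1, Mtfp1, Armcx3). Without cKO 1 those of Spire1, Wipi1 and Hspd1 ended, and without WT 1 those of Spire1 and Mtfp1.

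**Figure D5:**
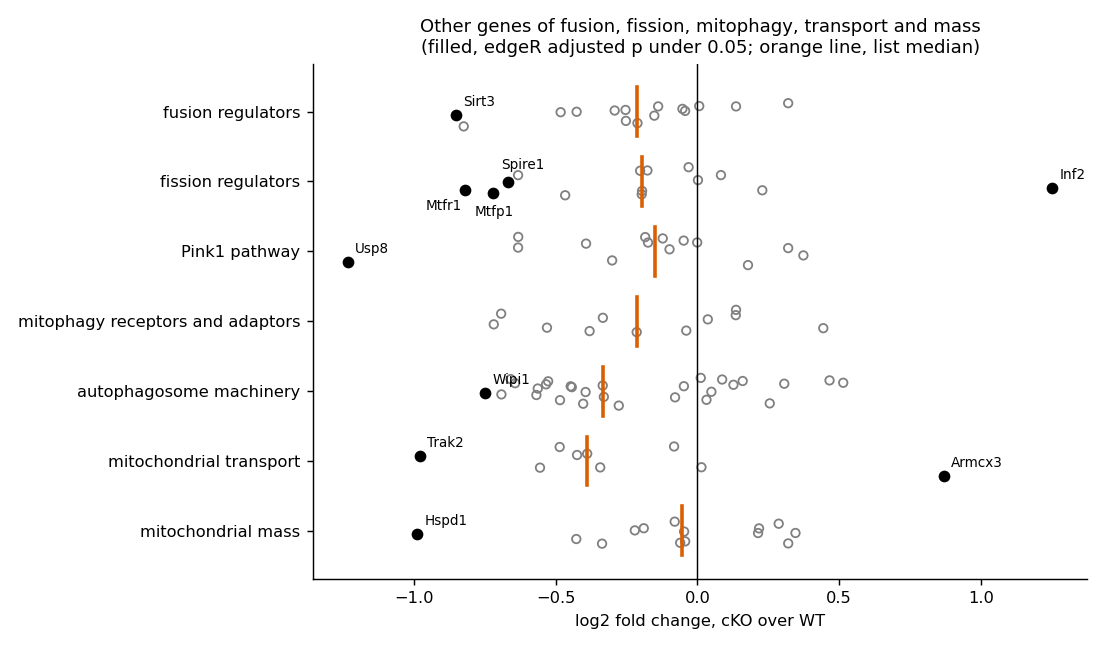
Fitted log2 fold change, cKO over WT, of each tested gene of the 7 further lists, 1 row a list, with called genes filled and named and the median of each list marked. The 10 called genes lie between -1.23 for Usp8 and 1.25 for Inf2, and the list medians lie between -0.39 and -0.05.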

How the data were processed

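Poly(A) RNA of 8 frozen kidneys was sequenced from a stranded library kit, per the labels' protocols. The files hold expected counts per gene, deposited by the authors; STAR and RSEM with the mm10 build are named in the submitters' processing notes, with no versions, annotation release or strand setting given in the sources used here. Expected counts were rounded, genes were kept with filterByExpr, and libraries were scaled by TMM. Groups were compared by edgeR's two-sided quasi-likelihood test (robust), with p-values adjusted by Benjamini-Hochberg across the 13829 genes tested, at a threshold of 0.05. CPM use TMM-scaled library sizes, and fold changes are cKO over WT. Exon lengths, overlaps and positions come from GENCODE M21, and promoters from RefSeq. Ratios had 0.5 counts added to each gene and were tested by exact permutation over 35 splits.

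The 10 genes and all lists were chosen with earlier results of these data known. Related genes are named by list, up to 4 called ones in order of adjusted p, or the 2 most abundant where none passed. The alternatives, 26 in all, were other scalings, filters, tests and thresholds, terms for age, sex (at least 10 counts of Y-linked genes), replicate number and long-gene share, and left-out libraries. Replicate numbers were not taken as pairs. Of the related lists, 1 gene counts in the totals and is not reported here. The steps were tested on simulated data. Fits ran in R 4.3.3 with edgeR 4.0.16, DESeq2 1.42.0 and limma 3.58.1, and tables and plots in Python 3.11.15 with numpy 2.4.6, matplotlib 3.10.9 and pandas 2.3.3.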

Additional observations from a re-analysis of the deposited data

Results flagged for a closer look

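In 50 groups of 4 libraries, 3 values lay far from the rest of their group by Dixon's test, which chance alone gives in about 5% of groups. Dnm1l in cKO 1, at 41.8 CPM, was above the other cKO libraries, at 31.3 to 32.9 CPM. Bcl2l13 in cKO 2, at 28.9 CPM, was below the other cKO libraries, at 40.1 to 41.6 CPM. The log2 ratio of Mfn2 to Mfn1 in WT 1, at 0.83, was above the other WT libraries, at 0.35 to 0.38.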

How the results depend on the processing

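The number of the 10 genes called, 0 by edgeR, was 2 with DESeq2 (Mfn2, Pink1), 1 with limma-voom (Pink1), 4 at an adjusted p under 0.1, 2 with an age term (Mfn2, Pink1), 1 with the replicate block (Mfn2), 1 without the 2.5-month pair (Mfn2), 1 with the long-gene term (Pink1), and 0 to 2 with 1 library left out, the 2 being Opa1 and Mfn1 without WT 1. The count of all genes called, 2310, was 798 at 0.01, 3526 at 0.1, 941 with a sex term, 120 in libraries lacking and 480 in libraries with Y-linked reads, 1397 without the 2.5-month pair, 568 without cKO 4 and WT 4, and 1155 to 3093 with 1 library left out. The count of related genes, 10, was 6 with upper quartile scaling, 3 with library size scaling, 0 at 0.01, 18 at 0.1, 5 with the replicate block, 1 with a sex term, 0 within either set of libraries by Y-linked reads, 2 without the 2.5-month pair, 0 without cKO 4 and WT 4, and 1 to 11 with 1 library left out. Under library size scaling the median over all genes shifted by 0.159 (log2). With 1 library left out, the log2 difference ran from -0.55 to -0.14 for Mfn2 to Mfn1, -0.31 to -0.16 for Opa1 to Dnm1l, and -0.53 to -0.34 for Bnip3l to Fundc1. Some small values changed sign. Fis1 was -0.13 in the contrast of libraries lacking Y-linked reads and -0.12 with the long-gene term. Mff was -0.066 in the contrast of libraries with Y-linked reads and -0.11 with the long-gene term, and ran from -0.12 (without cKO 2) to 0.37 with 1 library left out. Fundc1 was -0.17 with a sex term, -0.43 in libraries lacking Y-linked reads, -0.084 without the 2.5-month pair and -0.23 with the long-gene term, and ran from -0.15 to 0.33 with 1 library left out. Sqstm1 was -0.057 without cKO 4 and WT 4 and ran from -0.091 to 0.17 with 1 library left out, and Bnip3 from -0.56 to 0.034. The causes of these shifts were not tested. Same-numbered libraries had residual correlations of -0.08 to 0.28 and others -0.28 to 0.20, so the replicate block is only an alternative; under it Pink1 had an edgeR adjusted p of 0.0846. With 4 libraries a group, standard errors of the 10 log2 fold changes were 0.19 to 0.31. A gene that did not pass is therefore not shown to be unchanged, and its interval gives the values that remain compatible with these libraries.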
